A study of Mus musculus with 12 samples.

Results

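PML nuclear bodies are spherical nuclear structures assembled around the PML protein, and 5 genes that encode their resident or visiting proteins were followed here: Pml, Sp100, Sp110, Daxx and Atrx. They were taken by mouse symbol from a fixed list, through the Entrez identifiers of the expression table, and all 5 were found among the 17571 genes of the table. All 5 also had an FPKM (fragments scaled by transcript length and by the mapped total of the library) of at least 1 in at least 3 of the 12 libraries, the filter that left 10412 genes for testing. Pml, Sp100, Daxx and Atrx were above 1 FPKM in every library. Sp110 passed only through its 4 highest libraries, so its place among the tested genes says nothing of its response.

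The cells were L929, a fibroblast line from subcutaneous connective tissue of a C3H/An mouse, and the 12 libraries of total RNA fell into 4 groups of 3. Mock cells (labelled DMSO) received the solvent alone, and the labels do not say whether they also received the transfection reagent. The pEGFP-N1 cells were kept in DMSO for 1 h and then transfected with pEGFP-N1, a plasmid that carries a green fluorescent protein gene, and the BX795 cells received 0.5 uM BX795, an inhibitor of the kinase TBK1, without plasmid. The group named BX795 plus pEGFP-N1 received the inhibitor for 1 h and then the plasmid, and libraries were made 6 h later. Every group was thus 1 cell line of 1 genotype, the labels do not say whether replicates were separate cultures, and p-values measure only the spread between these libraries. RNA was measured in bulk, so that a smaller share of expressing cells and less RNA per cell cannot be told apart. No read totals come with FPKM values, and the sequencing depth behind each value is unknown.

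PML protein forms the shell of the body once it carries SUMO, a small ubiquitin-like modifier, and Sp100 is its other constant resident. Daxx is a histone chaperone that works with the chromatin remodeler Atrx to place histone H3.3 on silent DNA, and Sp110 is a relative of Sp100 that shares its SAND DNA-binding domain. These proteins are known to repress viral and plasmid DNA that enters the nucleus, and interferon is known to raise transcription of several of their genes.

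The state of the interferon response differed between libraries of the same label, and this bears on every comparison below. Isg15, a ubiquitin-like protein gene that interferon strongly induces, stood at 152 FPKM in the library labelled pEGFP-N1 1, 129 FPKM in pEGFP-N1 3 and 144 FPKM in BX795 plus pEGFP-N1 1. In the other 9 libraries it ranged from 1.26 to 5.15 FPKM, and these included the library labelled pEGFP-N1 2, at 1.38 FPKM. Whether the labels of pEGFP-N1 2 and BX795 plus pEGFP-N1 1 were exchanged was not tested, every comparison keeps the labels as deposited, and an exchange would change what each value of these groups means. The library labelled BX795 plus pEGFP-N1 3 stood apart in another way, with an FPKM sum of 467348 against 495030 to 513761 in the rest and the highest value of 24.2% of all tested genes. Of 7 fibroblast marker genes measured, 6 reached 1 FPKM, with Thy1 below it in every library. Their sum, nearly all Vim, was lowest in BX795 plus pEGFP-N1 3, at 1725 FPKM, and highest in pEGFP-N1 2, at 2247 FPKM. The other markers that reached 1 FPKM were Col1a1, Col1a2, Col3a1, Fn1 and Pdgfrb. All 5 had their 3 lowest values in the 3 Isg15-high libraries, as did 13.6% of all tested genes. Pdgfrb, a growth factor receptor gene, was 20.6, 21.5 and 22.2 FPKM there against 30.6 to 41.2 FPKM elsewhere, and the part of this in the members' values was not tested. No macrophage, epithelial or endothelial marker reached 1 FPKM in any library.

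The promoter sequences are shown first because Sp100 and Sp110 share one stretch near their start sites that the windows of Pml, Daxx and Atrx do not hold. Sequences are the GRCm38.p6 reference from RefSeq, windows of 250 bases before to 50 bases after an annotated start site, whose first base is counted as 0. All 5 members had at least 1 window. The 30-base windows below lie at chr1:85649933-85649962 (plus strand) for Sp100, at -55 to -26 from its first start site, and at chr1:85598780-85598809 (minus strand) for Sp110, at 1 to 30 from its second start site. Capitals mark the 20 of 30 bases that are identical in both.

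Sp100: agaATtACTTTCgTTTTTCTTTTCcccAtc
Sp110: gagATcACTTTCaTTTTTCTTTTCttgAag

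The stretch ACTTTCNTTTTTCTTTTC, searched on both strands after these windows had been read, was present in 4 of 32851 promoter windows, which belonged to 3 genes: Sp100, Sp110 and Gm7609, whose window is also on chromosome 1. It holds, on the opposite strand, the letters GAAANNNGAAA, a pair of core repeats of an interferon-stimulated response element set 3 bases apart, a spacing that was also chosen after the windows were read. Those letters stood at -47 to -37 in Sp100 and at 9 to 19 in Sp110, and 2.75% of all windows held them. The usual spacing, GAAANNGAAA, was in 3.44% of all windows, and the GAS letters TTCNNNGAA were in 8.30%. None of the members held either of these in any window, and Pml, Daxx and Atrx held none of the 3 motifs. Neither did Sp140, a relative described below that, like Daxx, was also highest in the Isg15-high libraries. The only Sp140 window begins at chr1:85600453, inside the gene as GENCODE places it, from 85600378, so bases before that start were not searched. Within the windows searched, a match did not go with the pattern over libraries in every gene. Among 11 interferon readout genes with a window, 5 held GAAANNGAAA, Isg15, Ifit1 and Cxcl10 among them. A match describes letters only, and a missing match says only that these letters are not in this window.

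The 250 bases before the start site are given in full for Sp100, the member with a match before its start site, and for Pml, the scaffold gene without a match. For Sp100 they are chr1:85649738-85649987 on the plus strand, with the 11 matched bases in capitals. For Pml they are chr9:58249787-58250036 on the minus strand, with no match to mark. Neither stretch overlaps an annotated exon.

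Sp100: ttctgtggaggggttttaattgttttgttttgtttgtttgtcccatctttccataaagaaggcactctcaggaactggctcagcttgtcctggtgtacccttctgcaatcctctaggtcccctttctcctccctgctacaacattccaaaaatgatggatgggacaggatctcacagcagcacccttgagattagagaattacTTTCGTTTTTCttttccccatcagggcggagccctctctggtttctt
Pml: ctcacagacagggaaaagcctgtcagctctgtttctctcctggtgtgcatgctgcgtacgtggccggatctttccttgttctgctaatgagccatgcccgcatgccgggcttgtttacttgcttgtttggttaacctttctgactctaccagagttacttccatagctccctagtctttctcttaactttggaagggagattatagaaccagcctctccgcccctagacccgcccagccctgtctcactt

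**Figure D1:**
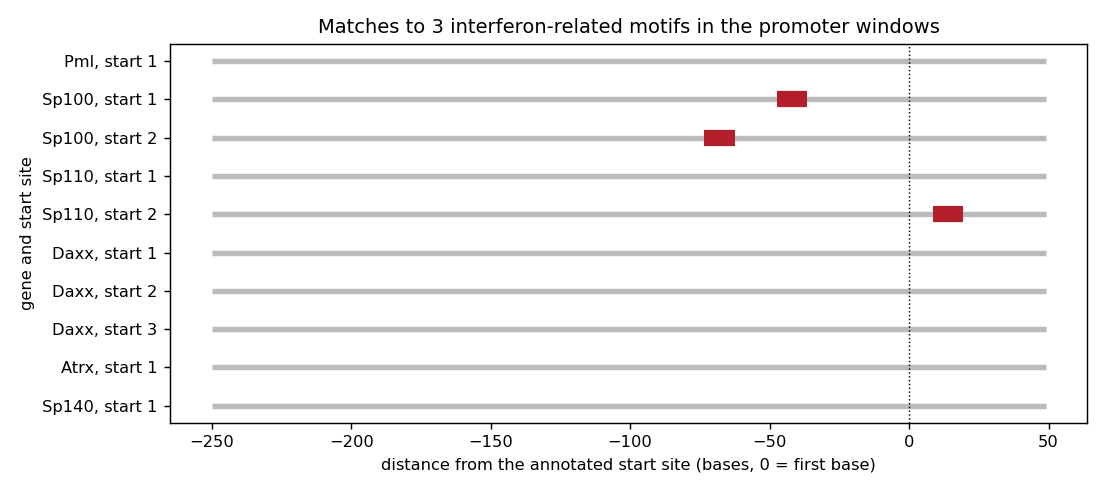
Position of motif matches (red) in the promoter windows of each member and of Sp140, against the distance in bases from each annotated start site. Matches are seen only in both Sp100 windows, which overlap and show 1 stretch at -47 to -37 from the first start site, and in the second Sp110 window, at 9 to 19.

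In mock cells the members fell into a well expressed and a weakly expressed set. Pml was the highest, at 26.4 ± 0.577 FPKM in mock (SD, n = 3), followed by Daxx at 13.9 ± 0.660 FPKM and Atrx at 11.95 ± 0.260 FPKM. Pml was above every Daxx and Atrx value in mock, and the lowest Daxx value, 13.1 FPKM, was above the highest Atrx value, 12.3 FPKM. Sp100 was at 1.25 ± 0.0866 FPKM and Sp110 at 0.610 ± 0.200 FPKM, and their mock values did not overlap, with Sp110 at most 0.840 FPKM. FPKM is scaled by transcript length, which allows these levels to be set beside each other. Over the 12 libraries the highest value was 1.25 times the lowest for Daxx, 1.31 times for Pml and 1.71 times for Atrx, but 3.31 times for Sp100 and 7.06 times for Sp110.

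**Figure D2:**
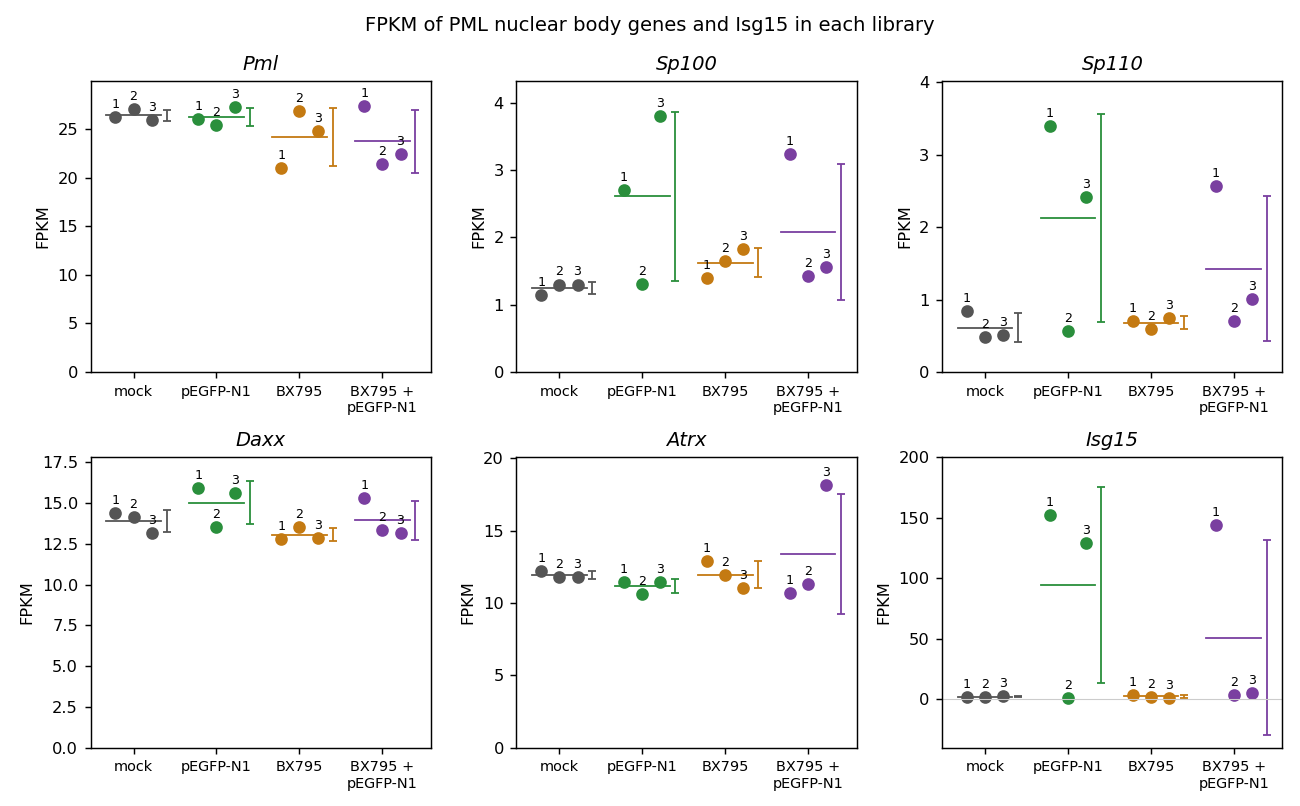
FPKM of the 5 members and of Isg15 in each library (numbered points), with the group mean (line) and SD (bar) for 3 libraries a group. Sp100 and Sp110 are highest in pEGFP-N1 1, pEGFP-N1 3 and BX795 plus pEGFP-N1 1, the libraries with Isg15 of 129 to 152 FPKM. Pml covers 20.9 to 27.4 FPKM, with BX795 plus pEGFP-N1 1 and pEGFP-N1 3 highest and pEGFP-N1 1 within the mock range.

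Pml, the scaffold of the body, was 26.2, 27.1 and 26.0 FPKM in mock, 26.0, 25.4 and 27.2 FPKM in pEGFP-N1, 20.9, 26.9 and 24.7 FPKM in BX795, and 27.4, 21.4 and 22.4 FPKM in BX795 plus pEGFP-N1. The plasmid group overlapped mock, and its 3 libraries differed by less than 2 FPKM although Isg15 was low in one of them. The highest values of Pml, 27.4 and 27.2 FPKM, were in the Isg15-high libraries BX795 plus pEGFP-N1 1 and pEGFP-N1 3. The other Isg15-high library, pEGFP-N1 1, lay within the mock range. The coefficient of variation was 2.18% in mock and 3.51% in pEGFP-N1, against 12.4% in BX795 and 13.5% in BX795 plus pEGFP-N1. In limma, fitted over all tested genes on log2(FPKM + 1), the change of Pml from mock to pEGFP-N1 was -0.01 (95% interval -0.23 to 0.21, adjusted p = 0.9997). An interval of this width does not hold a change of Pml as large as 0.5 on this scale.

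Sp100, the other resident of the body, was 1.15, 1.30 and 1.30 FPKM in mock, 2.71, 1.31 and 3.81 FPKM in pEGFP-N1, 1.40, 1.65 and 1.83 FPKM in BX795, and 3.24, 1.43 and 1.56 FPKM in BX795 plus pEGFP-N1. The 3 values above 2 FPKM belonged to the 3 Isg15-high libraries, at 2.17, 3.05 and 2.59 times the mean of mock, while pEGFP-N1 2 exceeded the highest mock library by only 0.01 FPKM, the last digit the table keeps. The change from mock to pEGFP-N1 was 0.62 ± 0.25 (SE) on the log2(FPKM + 1) scale, which understates the fold of genes this low, and limma gave an adjusted p of 0.970. All 3 BX795 libraries were above all 3 mock libraries as well, with a change of 0.22 ± 0.25 and an adjusted p of 0.681.

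Sp110, the relative of Sp100, was 0.84, 0.48 and 0.51 FPKM in mock, 3.39, 0.56 and 2.42 FPKM in pEGFP-N1, 0.71, 0.59 and 0.75 FPKM in BX795, and 2.57, 0.70 and 1.01 FPKM in BX795 plus pEGFP-N1. The Isg15-high libraries again held the top values, at 5.56, 3.97 and 4.21 times the mean of mock, and pEGFP-N1 2 lay within the mock range. The order among those 3 libraries was not the same as for Sp100: the ratio of Sp110 to Sp100 was 1.25 in pEGFP-N1 1 and 0.635 in pEGFP-N1 3. The change from mock to pEGFP-N1 was 0.84 ± 0.34 on the log2(FPKM + 1) scale (95% interval 0.09 to 1.58), and limma gave an adjusted p of 0.970. With 0.1 or 0.01 added to FPKM in place of 1, the change was 1.38 or 1.48.

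The values of Sp110 carry an uncertainty of assignment that those of Pml, Daxx and Atrx hardly have. Of the 31-base words in annotated Sp110 transcripts, 55.5% also occur in transcripts of other genes, against 9.20% for Sp100, 2.58% for Pml, 0.284% for Atrx and 0.153% for Daxx. Gm16026 shared 36.1% of the Sp110 words and was not analysed here. The words were matched on either strand. RSEM divides reads from such stretches only between genes in the annotation it was given, which is not known here. The level of Sp110 may thus include reads of another gene or lack its own.

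Daxx, the H3.3 chaperone, was 14.4, 14.2 and 13.1 FPKM in mock, 15.9, 13.5 and 15.6 FPKM in pEGFP-N1, 12.8, 13.5 and 12.9 FPKM in BX795, and 15.3, 13.3 and 13.2 FPKM in BX795 plus pEGFP-N1. Its 3 highest values were those of the Isg15-high libraries too, but the step was small, 1.15, 1.12 and 1.10 times the mean of mock. The pEGFP-N1 group overlapped mock through pEGFP-N1 2, and the change was 0.10 ± 0.08 (adjusted p = 0.9997, limma). It ranged from 0.06 without pEGFP-N1 1 to 0.17 without pEGFP-N1 2.

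Atrx, the remodeler that works with Daxx, was 12.3, 11.8 and 11.8 FPKM in mock, 11.4, 10.6 and 11.4 FPKM in pEGFP-N1, 12.9, 11.95 and 11.1 FPKM in BX795, and 10.7, 11.3 and 18.2 FPKM in BX795 plus pEGFP-N1. All 3 pEGFP-N1 values were below all 3 mock values, with a change of -0.09 ± 0.15 on the log2(FPKM + 1) scale (adjusted p = 0.9997, limma), and the Isg15-high libraries were not set apart. The change ranged from -0.11 without pEGFP-N1 3 to -0.06 without pEGFP-N1 2. The value of 18.2 FPKM came from BX795 plus pEGFP-N1 3, the library with the low FPKM sum. Without it, the change from pEGFP-N1 to BX795 plus pEGFP-N1 went from 0.21 to -0.02. In that library 24 of the 54 tested genes of the partner lists described below had their highest value, and the part of the library in the Atrx value was not tested.

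Read by library, the members were therefore not alike in whether they were higher where Isg15 was high. Sp100, Sp110 and Daxx, 3 of the 5 members, had their 3 highest values in exactly those libraries, an arrangement held by 9.99% of tested genes, and no member had its 3 lowest values there, as 13.6% of tested genes did. The share of tested genes is not fully free of the filter, since Sp110 was tested through those very libraries. As these libraries were recognised by what was measured in them, they were not averaged or tested as a group.

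**Figure D3:**
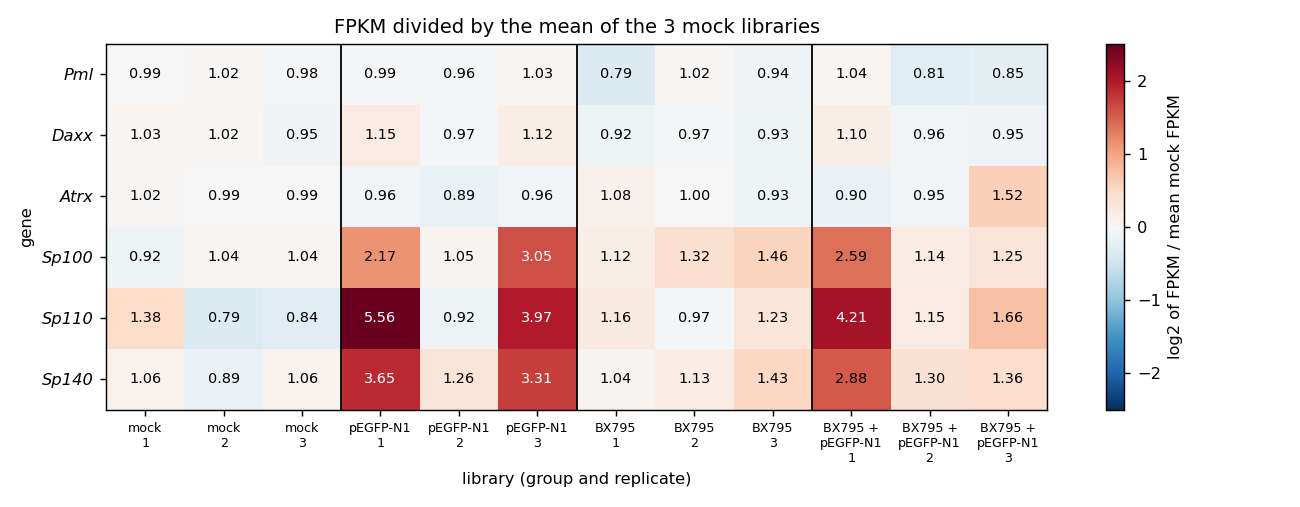
FPKM of each member and of Sp140 in each library, divided by the mean of the 3 mock libraries (printed in each cell, colour on a log2 scale). Sp100, Sp110 and Sp140 are at 2.17 to 5.56 times mock in pEGFP-N1 1, pEGFP-N1 3 and BX795 plus pEGFP-N1 1, whereas Daxx reaches 1.15 and Pml 1.04 there, and Atrx stands out only in BX795 plus pEGFP-N1 3.

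Sp140, a further member of the Sp100 family and not one of the 5 genes, lies between Sp110 and Sp100 on chromosome 1. Its start site is 1893 bases from the second start site of Sp110 and 49285 bases from the first of Sp100. It was 4.20, 3.52 and 4.20 FPKM in mock, 14.5, 4.99 and 13.2 FPKM in pEGFP-N1, 4.15, 4.49 and 5.67 FPKM in BX795, and 11.5, 5.18 and 5.39 FPKM in BX795 plus pEGFP-N1. The same 3 libraries were highest, the pEGFP-N1 group lay above mock throughout, and the change was 1.14 ± 0.34 (adjusted p = 0.594, limma). Sp140 shares 67.8% of its 31-base words with other genes. The 4 measured genes with at least 10% of these words did not move alike. Arhgef12, with 26.9%, was lowest in those libraries, at 10.4, 11.2 and 10.5 FPKM, A530032D15Rik, with 19.1%, stayed between 2.38 and 3.71 FPKM over all libraries, and Gm2427, with 18.6%, was 0.70 to 0.74 FPKM there within a range of 0.55 to 1.65 FPKM. C130026I21Rik, with 17.0%, was highest in those libraries, at 1.65, 2.01 and 2.01 FPKM against at most 0.64 FPKM elsewhere. The level of Sp140 is thus uncertain in the same way as that of Sp110.

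Compared by labelled group, the effect of the plasmid did not pass the test for any member. A gene was called at an adjusted p under 0.05 (limma, Benjamini-Hochberg over the 10412 tested genes). From mock to pEGFP-N1, 7 genes were called, 0.0672% of those tested, and 0 of the 5 members, of which Sp100 and Sp110 had unadjusted p-values of 0.030 and 0.031. Groups did not overlap for Sp100, which was higher, and Atrx, which was lower, an arrangement that 12.9% of tested genes showed in one direction or the other. The two-sided exact permutation p was 0.1 for both, the smallest that 3 libraries against 3 can give. Within the pEGFP-N1 group the values of Sp100 and Sp110 were divided, 2 libraries high and 1 at the level of mock, and this spread entered the standard errors. With each library left out in turn, the change of Sp100 ranged from 0.38 without pEGFP-N1 3 to 0.91 without pEGFP-N1 2, and that of Sp110 from 0.53 without pEGFP-N1 1 to 1.27 without pEGFP-N1 2. Leaving out pEGFP-N1 2 keeps the pEGFP-N1 libraries in which both genes were already seen to be high, so its value is no independent support.

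No member passed the test for BX795 in plasmid-treated cells either, where the BX795 plus pEGFP-N1 group held 1 Isg15-high library and the pEGFP-N1 group held 2. From pEGFP-N1 to BX795 plus pEGFP-N1 the change was -0.21 ± 0.25 for Sp100, -0.31 ± 0.34 for Sp110, -0.10 ± 0.08 for Daxx, -0.15 ± 0.10 for Pml and 0.21 ± 0.15 for Atrx. All 5 had adjusted p = 0.959 (limma) and overlapping groups, beside 2.8% of tested genes whose groups did not overlap. Called were 0 genes (0%) by limma, with 166 at an unadjusted p under 0.05. The size rested on single libraries. With each left out in turn, Sp100 ranged from -0.50 without pEGFP-N1 2 to 0.02 without pEGFP-N1 3, and Sp110 from -0.75 without pEGFP-N1 2 to -0.0049 without pEGFP-N1 1. Pml ranged from -0.25 without BX795 plus pEGFP-N1 1 to -0.08 without BX795 plus pEGFP-N1 2, and Daxx from -0.17 without pEGFP-N1 2 to -0.06 without pEGFP-N1 1.

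BX795 alone, against mock, gave changes on this scale from -0.13 ± 0.10 for Pml to 0.22 ± 0.25 for Sp100. The Pml value ranged from -0.21 without BX795 2 to -0.03 without BX795 1. The test called 7 genes (0.0672%) and 0 of the members. With only these groups in the fit it called 2150 of the 10412 tested genes and again 0 of the 5 members, too few members for this to set them apart. Sp100 was the only member whose groups did not overlap here (exact permutation p = 0.1, two-sided), and as many as 39.8% of tested genes were arranged in this way in one direction or the other.

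With BX795 present, the plasmid gave changes of 0.45 ± 0.34 for Sp110, 0.18 ± 0.25 for Sp100, 0.12 ± 0.15 for Atrx, 0.09 ± 0.08 for Daxx and -0.03 ± 0.10 for Pml. No member had separate groups, beside 10.7% of tested genes, and 0 genes (0%) were called by limma, with 579 at an unadjusted p under 0.05. With each library left out in turn, Sp110 ranged from 0.14 without BX795 plus pEGFP-N1 1 to 0.67 without BX795 plus pEGFP-N1 2, and Sp100 from -0.07 to 0.33 without the same libraries. Daxx ranged from 0.02 without BX795 plus pEGFP-N1 1 to 0.12 without BX795 plus pEGFP-N1 3. The plasmid effect without BX795 minus that with it was 0.44 ± 0.36 for Sp100 and 0.38 ± 0.48 for Sp110, and for this difference too 0 genes (0%) were called by limma, with 407 at an unadjusted p under 0.05. These intervals reach from -0.34 to 1.21 for Sp100 and from -0.67 to 1.44 for Sp110, so neither a loss nor a gain of the plasmid effect under BX795 could be detected. With each library left out in turn, this difference ranged from 0.20 without pEGFP-N1 3 to 0.73 without pEGFP-N1 2 for Sp100, and from 0.08 without pEGFP-N1 1 to 0.82 without pEGFP-N1 2 for Sp110.

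**Figure D4:**
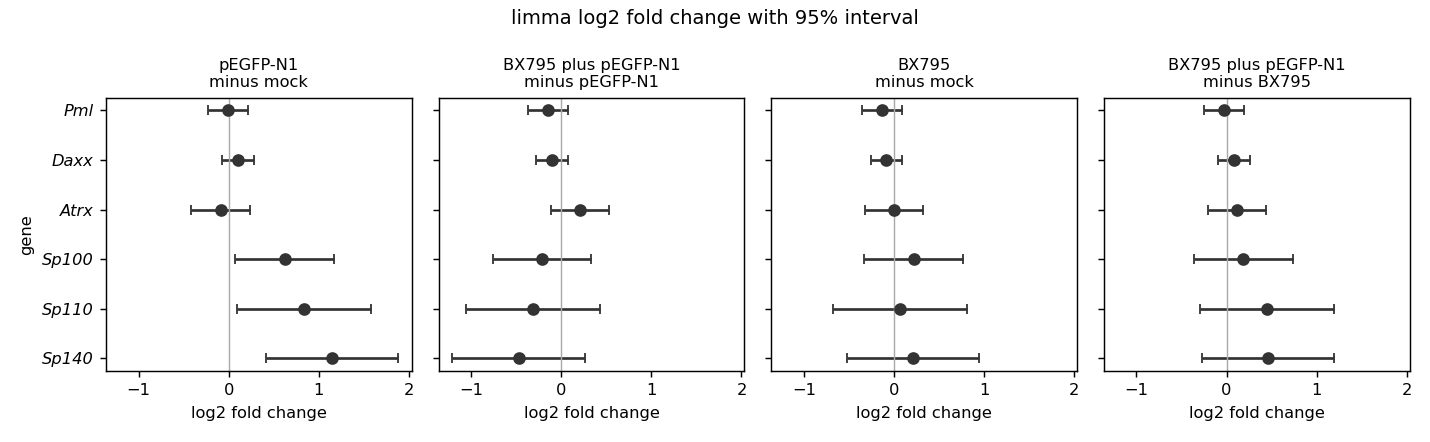
Log2 fold change (points) with 95% intervals from limma for the members and Sp140 in the 4 comparisons of labelled groups, on the log2(FPKM + 1) scale. In pEGFP-N1 minus mock the intervals of Sp100, Sp110 and Sp140 lie above 0 before adjustment, and in the other comparisons every interval spans 0.

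The members also differed in which other genes had a like pattern over the 12 libraries, measured as the root mean square difference of log2(FPKM + 1) values after each gene was centred on its own mean, among 10411 genes. The nearest to Sp100 were Trim34a (0.115), Helz2 (0.115) and Oas1c (0.125), of which Helz2 encodes a helicase that interferon induces and Oas1c belongs to the 2′-5′-oligoadenylate synthetase family. The nearest to Sp110 were Car13 (0.122), a carbonic anhydrase gene, Trim26 (0.130) and Zfp945 (0.131). Sp100 ranked 45th in likeness to Sp110, whereas Daxx ranked 815th and Pml 2503rd, so the members did not form a single pattern.

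Pml was closest to Syvn1 (0.0336), a ubiquitin ligase gene of the endoplasmic reticulum, Zfp574 (0.0527) and Ajuba (0.0588). Daxx was closest to Mettl1 (0.0391), a tRNA methyltransferase gene, Ddx55 (0.0409) and Arhgdib (0.0418). Among the genes closest to Atrx were Ash1l (0.0509), which encodes a histone H3 methyltransferase, and Myo9a, and both also had their highest value in BX795 plus pEGFP-N1 3. None of the genes named as nearest to Pml, Daxx or Atrx was another member.

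The wider machinery of the body was followed in lists chosen for their roles, and 0 genes of any list passed the test in any comparison, beside the calls of 0.0672% or less of all tested genes. The 18 genes of the SUMO cycle, which attaches and removes SUMO, were all tested, and their mean levels went from 6.35 FPKM for the protease Senp7 to 446 FPKM for Sumo2. From mock to pEGFP-N1, 9 of them had positive and 9 negative changes, with a median of 0.00 beside -0.00 for all tested genes and the largest at -0.14 for the ligase Pias1.

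Of 13 genes for H3.3 deposition and heterochromatin, 12 were tested and 1 was not analysed here. Their levels ranged from 9.68 FPKM for the chaperone Asf1a to 381 FPKM for Cbx3, which encodes heterochromatin protein HP1 gamma, and 3 changes were positive and 9 negative, with a median of -0.01. The largest was -0.16 for Ubn2, a subunit of the HIRA complex that also deposits H3.3. Asf1a, H3f3b and Trim28 had their 3 highest values in the Isg15-high libraries, as did 9.99% of all tested genes. The 8 genes of the SMC5/6 complex, which binds and silences extrachromosomal DNA, ranged from 10.3 FPKM for Slf1 to 49.1 FPKM for Nsmce4a. Their median change was -0.04, the largest was -0.19 for Slf2, and none had its 3 highest values in the Isg15-high libraries, beside the same 9.99%.

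The 13 other proteins that pass through the body went from Crebbp at 3.63 FPKM, an acetyltransferase gene, to Trp53 at 153 FPKM, which encodes p53. From mock to pEGFP-N1, 6 had positive and 7 negative changes, with a median of -0.02. In BX795 plus pEGFP-N1, 12 were positive and 1 negative against pEGFP-N1 (median 0.11, all tested genes 0.01) and against BX795 (median 0.12, all tested genes -0.02). The difference of plasmid effects had 2 positive and 11 negative, and the part of BX795 plus pEGFP-N1 3 in this was not tested. The largest change from mock to pEGFP-N1 was that of Isg20, an interferon-induced exonuclease gene. Isg20 was 8.44, 7.07 and 8.93 FPKM in mock, 14.7, 10.9 and 13.3 FPKM in pEGFP-N1, 10.1, 11.6 and 11.4 FPKM in BX795, and 18.5, 10.96 and 13.3 FPKM in BX795 plus pEGFP-N1. Unlike Sp110 it was above mock in all 9 other libraries, including pEGFP-N1 2, and its change from mock to pEGFP-N1 was 0.61 ± 0.16 (adjusted p = 0.475, limma). Nbn, a gene of DNA break repair, was the only one of this list whose 3 highest values were in the Isg15-high libraries, beside 9.99% of tested genes. Of 5 SAND domain relatives, 3 were tested, Deaf1 was the highest at 11.7 FPKM, and Aire, at 0.02 FPKM, was below the filter.

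**Figure D5:**
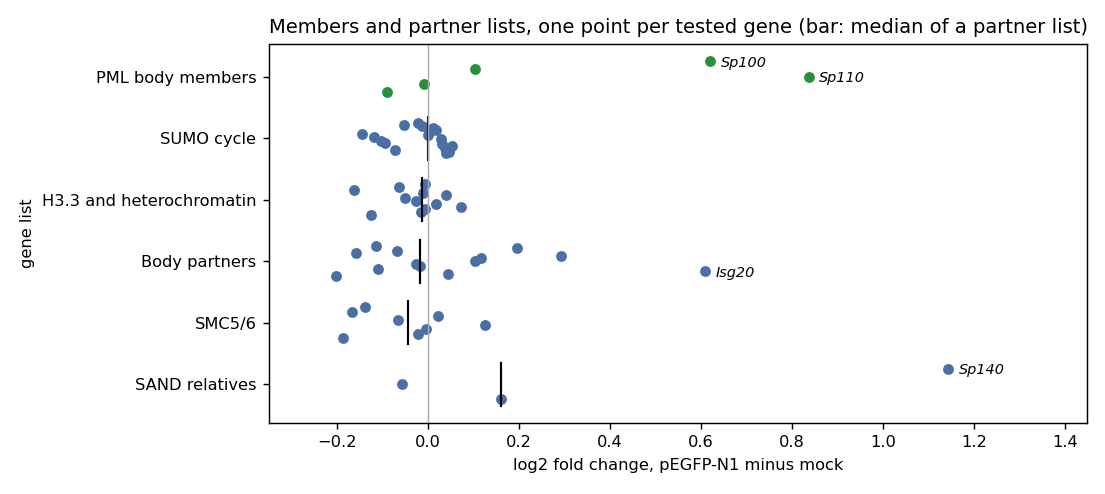
Log2 fold change from mock to pEGFP-N1 for each tested gene of the members and of 5 partner lists (points), on the log2(FPKM + 1) scale, with the median of each partner list as a bar. Most partner genes lie within 0.2 of 0, whereas Sp100, Sp110, Isg20 and Sp140 lie at 0.61 to 1.14.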

How the data were processed

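RNA of 12 L929 libraries was sequenced on the BGISEQ-500 platform. The authors aligned reads with Bowtie2 2.2.5, allowing up to 200 alignments a read, and estimated levels with RSEM 1.2.12 on GRCm38.p5, and the deposited values are FPKM with 2 decimals, without counts. The annotation used was not given in the sources used here. No whole-read steps could be recovered, since 26.8% of 1321 low values lay within 0.1 of a whole multiple.

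FPKM + 1 was taken to log2 for genes with at least 1 FPKM in at least 3 libraries. Group means were fitted on all 12 libraries in limma 3.58.1 (R 4.3.3) with a trend on the mean, and each of 5 contrasts had its p-values corrected (Benjamini-Hochberg) across the tested genes. Exact permutation tests compared 3 libraries with 3, with 20 tests of the members. On simulated data of the contrast pEGFP-N1 minus mock with 10412 genes, the fit recovered 94% of genes with a log2 change of 1 and 99% with a change of 2, with 3.59% and 5.71% of calls false. Recovery over all genes does not carry over to genes with a wide spread such as Sp110. The study called genes with a count model, which FPKM does not allow. No pair among the 66 library pairs was identical. Replicate numbers were not used to pair the libraries in the main fit. Of 18 correlations of deviations from the group means, 6 were over 0.1, with the highest at 0.635 and the lowest of all at -0.389. Those 6 were all of replicates 1 and 2 between treated groups, and what gave rise to them was not tested.

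The members and lists were chosen with earlier results of these data known. Genes named are the members, the list genes that passed the test, had the highest or lowest level or the largest change from mock to pEGFP-N1, the 3 genes most like each member, and genes of the table sharing at least 10% of a member's 31-base words. Genes sharing words with Sp140, fibroblast markers with values, and list genes named for their highest libraries, were chosen after their values were seen. Shared words and gene positions come from GENCODE M21 transcripts, and promoters from RefSeq. The reference is C57BL/6J, not C3H/An. Alternatives covered pseudocounts of 0.1 and 0.01, 2 other filters, 3 normalizations, no trend, a replicate block, only the groups compared, stricter thresholds and each library left out in turn. List genes not analysed here number 3. Some genes that these rules would name are not reported here.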

Additional observations from a re-analysis of the deposited data

How the results depend on the processing

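None of the 5 members was called under any of 22 alternative settings, in 535 values, of which 506 kept their direction and side of the threshold and 29 changed sign. The change from mock to pEGFP-N1 ranged from 0.38 to 0.93 for Sp100 and from 0.53 to 1.48 for Sp110, with smallest adjusted p-values of 0.101 and 0.080 (limma), both without pEGFP-N1 2. A mean of at least 5 FPKM removed both genes, so that setting gave no value for them. Rescaled to TPM, Pml changed by 0.0051 in BX795 plus pEGFP-N1 minus BX795, and the difference of plasmid effects was -0.0257 for Pml and -0.0247 for Daxx. After quantile normalization Sp110 changed by -0.0298 in BX795 minus mock, and the difference of plasmid effects was -0.0045 for Pml and -0.0042 for Daxx.

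With libraries left out in turn, limma called 0 to 17 genes in pEGFP-N1 minus mock (17 without pEGFP-N1 2), 0 to 149 in BX795 minus mock (149 without pEGFP-N1 2) and 0 to 1 for the difference of plasmid effects (1 without BX795 plus pEGFP-N1 1). Changes that crossed 0 ranged from -0.0364 to 0.0114 for Pml in pEGFP-N1 minus mock, from -0.50 to 0.0241 for Sp100 and from -0.0181 to 0.34 for Atrx in BX795 plus pEGFP-N1 minus pEGFP-N1, and from -0.0518 to 0.0507 for Atrx in BX795 minus mock. In BX795 plus pEGFP-N1 minus BX795 they ranged from -0.13 to 0.0493 for Pml, from -0.0714 to 0.33 for Sp100 and from -0.11 to 0.25 for Atrx. The difference of plasmid effects ranged from -0.0595 to 0.12 for Pml, from -0.0247 to 0.0870 for Daxx and from -0.34 to 0.0173 for Atrx. Against pEGFP-N1 the sign of Sp100 turned without pEGFP-N1 3, against BX795 it turned without BX795 plus pEGFP-N1 1, and in both that of Atrx turned without BX795 plus pEGFP-N1 3.

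Without a filter limma called 2 genes in pEGFP-N1 minus mock, 2 in BX795 plus pEGFP-N1 minus pEGFP-N1, 1 in BX795 plus pEGFP-N1 minus BX795 and 1 for the difference of plasmid effects. With only the groups compared it called 4 genes in pEGFP-N1 minus mock and 2150 in BX795 minus mock, where the plasmid libraries no longer entered the estimate of the spread. At an adjusted p of at most 0.001 and a log2 change of at least 2 it called 0 and 0. The replicate block gave 5 and 7 genes in these comparisons and changed no call of a member. Depth is unknown, and for Sp100 and Sp110, near 1 FPKM, the pseudocount alone moved the change.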
